A study of Macaca fascicularis with 8 samples.

Results

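Matriptase, prostasin, their membrane inhibitors, the related protease TMPRSS2 and the adhesion molecule EPCAM were examined in embryonic stem cells (ESCs) of the cynomolgus monkey, Macaca fascicularis. The 6 genes ST14, PRSS8, TMPRSS2, SPINT1, SPINT2 and EPCAM were taken from 33121 genes by name or, where the table carried no name, by the row whose best protein match was that gene's protein at 85% identity or more. Of several rows for 1 gene, the row with the highest mean level was taken. The 6 were chosen by their known lower RPKM values in the dome-shaped libraries of these same data, so their levels and fold changes below are descriptions and carry no test.

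Polyadenylated RNA was sequenced in 4 dome-shaped and 4 primed libraries, and the level of each gene was given as RPKM, a read count divided by gene length and by the depth of the library. Dome-shaped ESCs grew in NHSMV, a medium of knockout DMEM with AlbuMAX I, N2 supplement, insulin, human LIF, bFGF, TGF-β1, glutamine, nonessential amino acids, β-mercaptoethanol and vitamin C. It also held the kinase inhibitors PD0325901 (MEK), CHIR99021 (GSK3), SB202190 and SB203580 (p38) and SP600125 (JNK), and the cells passaged strongly as single cells. Primed ESCs grew as flat colonies in CESM, a mixture of the commercial PSGro medium for human pluripotent cells with a conventional monkey ESC medium, and passaged weakly as single cells. Medium, colony form, passage and group coincide, so their parts in any difference cannot be told apart. The labels do not say that the libraries came from separate cultures, so p-values measure only the spread between these libraries. In bulk RNA, fewer cells of a type and less RNA per cell cannot be told apart either.

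Matriptase, encoded by ST14, is a transmembrane serine protease of epithelial cells, and prostasin, encoded by PRSS8, is a serine protease held in the membrane by a lipid anchor; each can promote activation of the other. The Kunitz-type inhibitors HAI-1, encoded by SPINT1, and HAI-2, encoded by SPINT2, can block both proteases. EPCAM is an epithelial adhesion molecule and a surface marker of human pluripotent cells, it binds claudin-7, and matriptase can cleave it.

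The libraries held an estimated 14398000 to 18074000 reads, read from the step size of the low RPKM values. Along the first principal component of all tested genes, which held 49.4% of the variance, dome-shaped replicates 1 to 3 lay at 40.7 to 41.1, dome-shaped replicate 4 at 9.93, and the primed libraries at -37.0 to -28.6. Dome-shaped replicate 4 also stood apart in CDH1, the E-cadherin of epithelial junctions, with 9.96 RPKM against 0.205 to 1.56 RPKM in the other dome-shaped libraries and 76.5 to 101 RPKM in primed libraries. The fold changes of the 6 genes are therefore given with and without that library, and those of the lists where it moved a call or the fold by over 1.5 times.

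Levels of all 6 genes were lower in the dome-shaped group, and for none of them did the libraries of the groups overlap. The differences ran from an 8-library log2 fold change of -3.43 for ST14 to -0.82 for SPINT2, with a median of -2.29 over the 6 genes beside 0.03 over the 15597 genes tested. In a limma fit over all tested genes with Benjamini-Hochberg adjustment, 6 of 6 met the threshold of 0.05 in the lower direction, beside 7.96% of all genes (14.3% were called in either direction), and 5 of 6 were at least 2-fold lower, beside 3.70%. Complete separation of the libraries in the lower direction occurred for 6 of 6, beside 10.7% of all genes. Nothing is read from these counts, since the contrast was known when the genes were picked. The gene lists and markers below were also chosen with earlier results of these data known. Their counts and p-values are therefore no independent evidence. The background itself varied with the libraries used: 655 to 757 genes were called lower without dome-shaped replicate 2 or 3 or primed replicate 2 or 4, against 1242 with all 8 libraries.

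**Figure D1:**
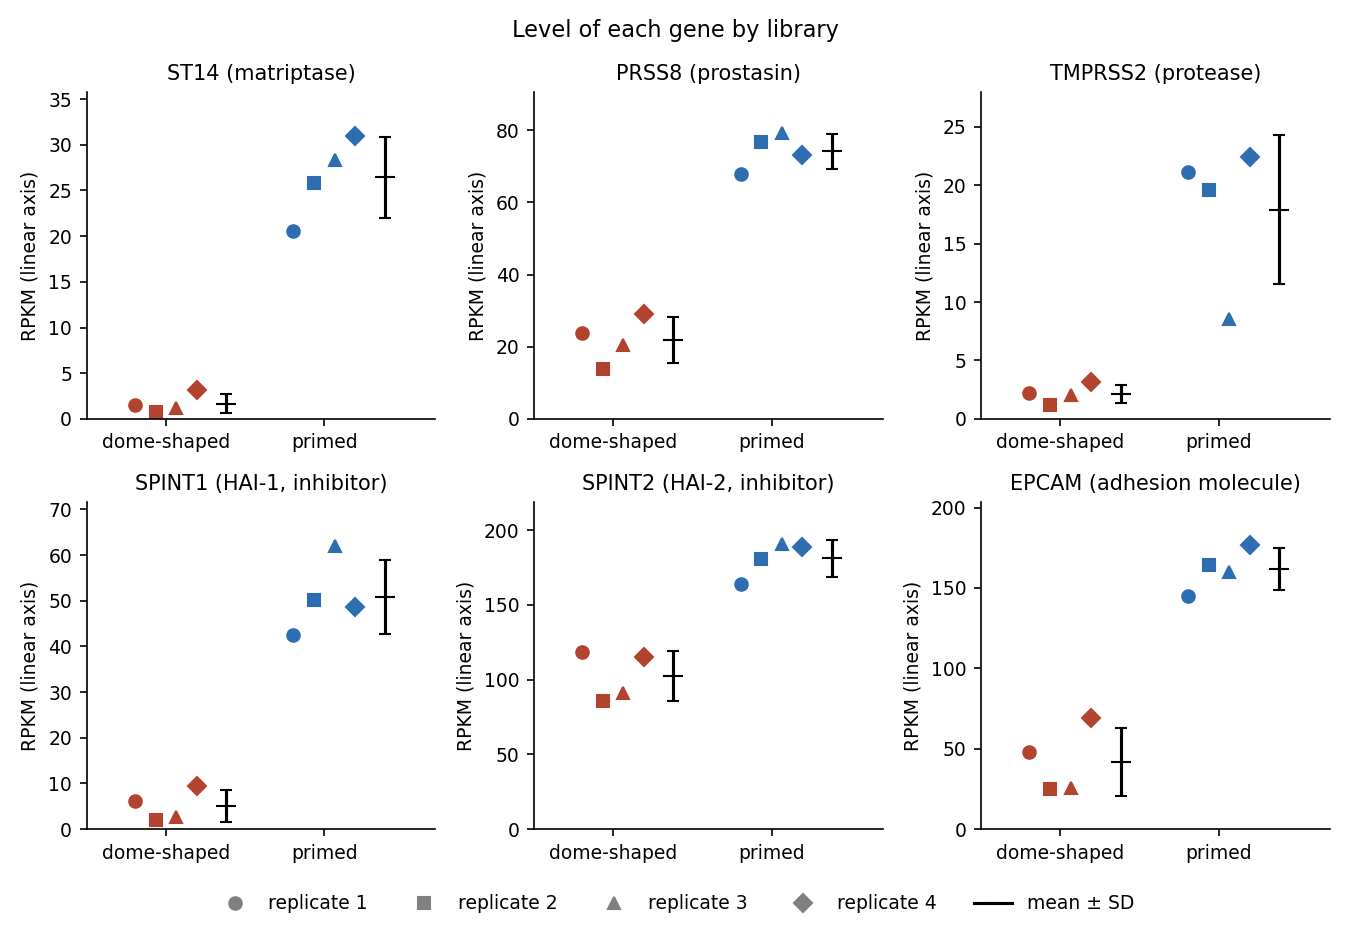
RPKM (linear axes) of the 6 genes in each library, with dome-shaped libraries in red, primed libraries in blue, symbols for replicates and bars for mean ± SD (n = 4 each). In every panel the 4 dome-shaped libraries lie below the 4 primed libraries, and the gap is narrowest in relation to the level for SPINT2.

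Of the proteases, ST14 had the largest fold change of the 6 genes. ST14 (ENSMMUG00000018034) stood at 1.58, 0.753, 1.16 and 3.15 RPKM in dome-shaped replicates 1 to 4, against 20.6, 25.8, 28.3 and 31.0 RPKM in primed replicates 1 to 4. The primed libraries were uniformly high and the dome-shaped ones near the 1 RPKM filter, with dome-shaped replicate 4 the highest of them. The means were 1.66 ± 1.05 RPKM in dome-shaped and 26.4 ± 4.42 RPKM in primed ESCs (SD, n = 4 each), so the dome-shaped level was 6.28% of the primed one. The log2 fold change, on the log2(RPKM + 1) scale that understates changes of low genes, was -3.43 ± 0.25 (SE) and -3.67 without dome-shaped replicate 4. It ranked 18 from the lowest of all tested genes. The lowest value, in dome-shaped replicate 2, corresponded to about 27 reads, so the dome-shaped levels of this gene carried the largest counting error of the 6.

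PRSS8, the prostasin gene (ENSMMUG00000002031), stood at 23.7, 13.8, 20.6 and 29.1 RPKM in dome-shaped replicates 1 to 4, against 68.0, 76.8, 79.1 and 73.1 RPKM in primed replicates 1 to 4. It remained well above the filter in every dome-shaped library, unlike ST14, and dome-shaped replicate 4 was again the highest of its group. Means were 21.8 ± 6.38 RPKM in dome-shaped and 74.2 ± 4.87 RPKM in primed ESCs (SD, n = 4 each), a dome-shaped level of 29.4% of the primed level. The log2 fold change was -1.77 ± 0.19 (SE), and -1.91 without dome-shaped replicate 4.

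TMPRSS2, another transmembrane serine protease, known for cutting viral spike proteins at the surface of airway cells, had the lowest mean of the 3 proteases in primed ESCs. TMPRSS2 (ENSMMUG00000015332) had 2.22, 1.19, 2.08 and 3.12 RPKM in dome-shaped replicates 1 to 4, against 21.1, 19.6, 8.52 and 22.4 RPKM in primed replicates 1 to 4. Primed replicate 3 was less than the other primed libraries, yet still above every dome-shaped library. Means were 2.15 ± 0.792 RPKM in dome-shaped and 17.9 ± 6.36 RPKM in primed ESCs (SD, n = 4 each), a dome-shaped level of 12% of the primed level. The log2 fold change was -2.54 ± 0.30 (SE), and -2.68 without dome-shaped replicate 4.

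The inhibitor genes differed in how far they stood below their primed level. SPINT1, encoding HAI-1 (ENSMMUG00000018041), stood at 6.19, 1.97, 2.58 and 9.54 RPKM in dome-shaped replicates 1 to 4, against 42.6, 50.2, 62.0 and 48.5 RPKM in primed replicates 1 to 4. Dome-shaped replicates 1 and 4 were the higher ones of their group, and all were far below the primed libraries. Means were 5.07 ± 3.52 RPKM in dome-shaped and 50.8 ± 8.17 RPKM in primed ESCs (SD, n = 4 each), a dome-shaped level of 9.97% of the primed level. The log2 fold change was -3.27 ± 0.36 (SE), and -3.60 without dome-shaped replicate 4. A second row matched to a SPINT1-like protein was listed at 0 in all 8 libraries.

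SPINT2, encoding HAI-2 (ENSMMUG00000002158), was the most abundant of the 6 genes and had the smallest fold change. It stood at 118.7, 85.7, 91.1 and 115.2 RPKM in dome-shaped replicates 1 to 4, against 163.8, 181.0, 190.8 and 188.8 RPKM in primed replicates 1 to 4. The dome-shaped libraries were lower than the primed ones without overlap, but they kept more than 85 RPKM each. Means were 102.7 ± 16.7 RPKM in dome-shaped and 181.1 ± 12.3 RPKM in primed ESCs (SD, n = 4 each), a dome-shaped level of 56.7% of the primed level. The log2 fold change was -0.82 ± 0.12 (SE), and -0.88 without dome-shaped replicate 4. Of all tested genes, 6.10% had a lower fold change than SPINT2, against 0.128% for SPINT1.

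EPCAM (ENSMMUG00000012390) stood at 47.9, 25.0, 25.5 and 69.1 RPKM in dome-shaped replicates 1 to 4, against 145.3, 164.2, 159.9 and 177.0 RPKM in primed replicates 1 to 4. It was clearly expressed in every library, with dome-shaped replicates 2 and 3 at about the same low level and replicate 4 the highest of the dome-shaped group. Means were 41.9 ± 21.0 RPKM in dome-shaped and 161.6 ± 13.1 RPKM in primed ESCs (SD, n = 4 each), a dome-shaped level of 25.9% of the primed level. The log2 fold change was -2.05 ± 0.29 (SE), and -2.33 without dome-shaped replicate 4.

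The 6 genes shared an order of the libraries within the dome-shaped group. Dome-shaped replicate 2 was the lowest dome-shaped library for 6 of 6 genes, and replicate 4 the highest for 5 of 6, SPINT2 being highest in replicate 1. Among primed libraries, replicate 1 was the lowest for 5 of 6 and replicate 3 for TMPRSS2. Relative spread was larger in dome-shaped ESCs: the coefficient of variation was 63.2% in dome-shaped against 16.7% in primed libraries for ST14, 69.4% against 16.1% for SPINT1, and 50.2% against 8.08% for EPCAM. For TMPRSS2 the spreads were close, 36.8% in dome-shaped and 35.5% in primed libraries. The 6 genes share these libraries, so the shared order is 1 observation and not 6.

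**Figure D2:**
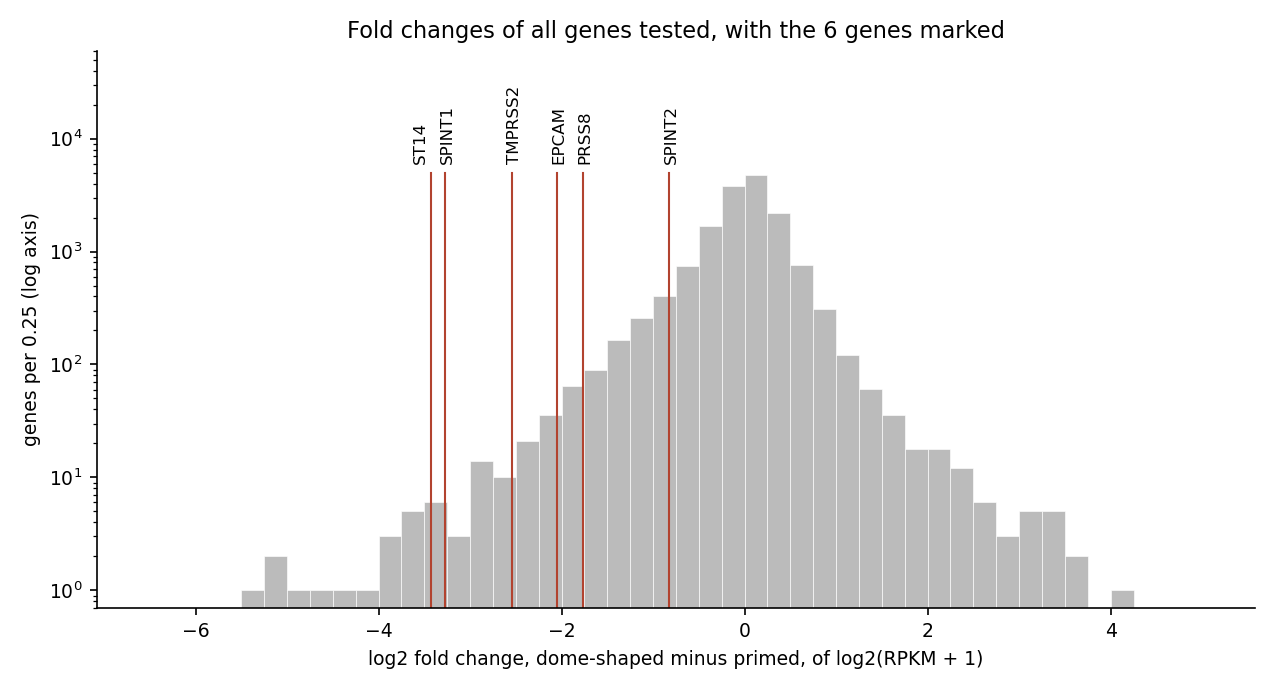
Number of tested genes (log axis) by log2 fold change, dome-shaped minus primed, of log2(RPKM + 1), in bins of 0.25, with the 6 genes marked by red lines. ST14 (-3.43) and SPINT1 (-3.27) lie in the far lower tail, and SPINT2 (-0.82) nearest the bulk of the genes.

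RPKM values are scaled by gene length, so the genes can be set beside one another within a library as far as the lengths hold. The lengths differed in how complete they were. That of EPCAM was 871 bases, matching 289 of 319 residues, and that of ST14 was 2490 bases, matching 829 of 1070 residues. The order of the genes and the size of ratios between them depend on these lengths. In dome-shaped ESCs the levels ran SPINT2, EPCAM, PRSS8, SPINT1, TMPRSS2 and ST14, high to low, and in primed ESCs SPINT2, EPCAM, PRSS8, SPINT1, ST14 and TMPRSS2. Several neighbours in these orders did not separate: in dome-shaped ESCs the ranges of EPCAM and PRSS8, of SPINT1 and TMPRSS2, and of TMPRSS2 and ST14 overlapped, and in primed ESCs those of SPINT2 and EPCAM and of ST14 and TMPRSS2. The last pair changed places: TMPRSS2 was above ST14 in 3 of 4 dome-shaped libraries, and ST14 above TMPRSS2 in 3 of 4 primed libraries.

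Ratios of protease to inhibitor, taken within each library, described the balance of the transcripts. ST14 to SPINT2 was 0.00878 to 0.0273 in dome-shaped and 0.126 to 0.164 in primed libraries, and PRSS8 to SPINT2 was 0.162 to 0.253 in dome-shaped and 0.387 to 0.424 in primed libraries. Set against HAI-2, both protease transcripts were thus scarcer in every dome-shaped library. ST14 to SPINT1 differed much less, at 0.255 to 0.450 in dome-shaped and 0.456 to 0.639 in primed libraries, and the ends of these ranges nearly met. PRSS8 to SPINT1 ran the other way, at 3.05 to 7.99 in dome-shaped and 1.28 to 1.6 in primed libraries, a mean of 5.48 ± 2.40 against 1.48 ± 0.140 (SD, n = 4 each). The ratio of the inhibitors themselves, SPINT1 to SPINT2, was 0.0230 to 0.0828 in dome-shaped and 0.257 to 0.325 in primed libraries. The ratios are built from the picked genes, so they are given without a test, and they speak of transcripts, not of protein or activity.

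**Figure D3:**
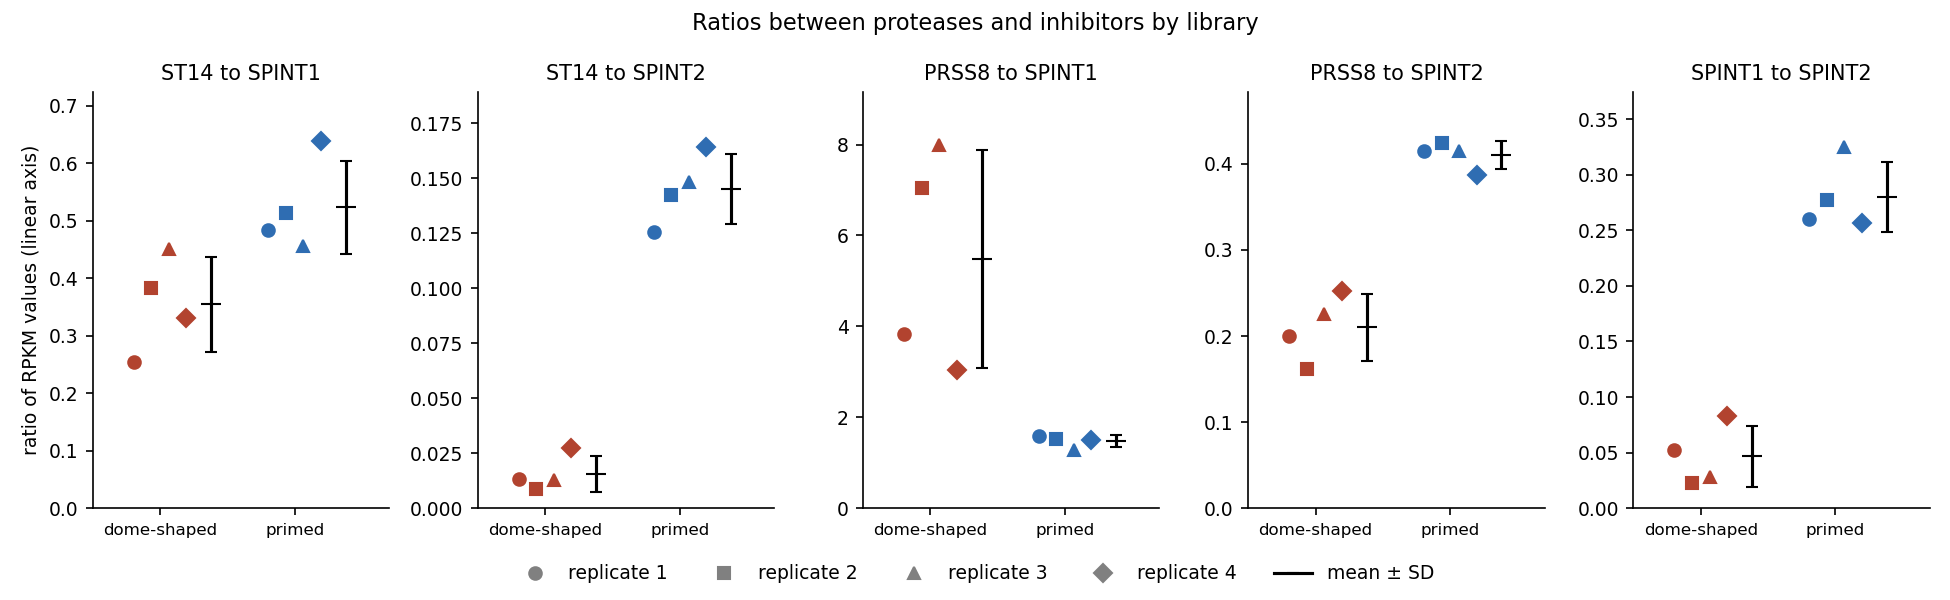
Ratios of RPKM values between proteases and inhibitors in each library (linear axes), with dome-shaped libraries in red, primed libraries in blue and bars for mean ± SD (n = 4 each). PRSS8 to SPINT1 is higher in the dome-shaped libraries and the other 4 ratios are lower, with the groups nearly meeting for ST14 to SPINT1.

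Among other membrane-anchored serine proteases, TMPRSS13 and HPN were called lower. Of 22 genes, 20 were found in the table, 3 passed the filter of at least 1 RPKM in at least 4 libraries, 2 were called lower and 0 higher by limma, beside 7.96% and 6.38% of all genes; at an unadjusted p under 0.05 the counts were likewise 2 and 0. TMPRSS13, a transmembrane serine protease of epithelia, stood at 0.370, 0, 0.0224 and 0.440 RPKM in dome-shaped replicates 1 to 4, against 5.89, 12.2, 15.4 and 15 RPKM in primed replicates 1 to 4. It was near or at 0 in dome-shaped ESCs and moderately expressed in primed ones, with a log2 fold change of -3.38 ± 0.29 (SE) and an adjusted p of 0.000619 by limma. It passed the filter through its primed libraries alone, so a gene with its levels had to differ, and its fold change was -5.60 with a pseudocount of 0.1 and -4.13 with 0.5. HPN, encoding hepsin, fell to 5.59 ± 4.10 RPKM in dome-shaped ESCs, against 15.4 ± 3.89 RPKM in primed ESCs (SD, n = 4 each), a log2 fold change of -1.52 ± 0.44 (SE) with a limma adjusted p of 0.0477. That call was lost without dome-shaped replicate 2 or 3 or without any 1 primed library, where the adjusted p was 0.0522 to 0.116. TMPRSS9 did not pass, at 1.57 ± 0.252 RPKM in dome-shaped and 1.17 ± 0.495 RPKM in primed ESCs (limma adjusted p = 0.368). Of the 20 genes, 12 were below 1 RPKM in every library and TMPRSS11A, TMPRSS11D and TMPRSS15 were listed at 0 throughout.

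Most other inhibitors of serine proteases were not called, and those that were called were lower. Of 30 genes, 29 were found and 15 tested, of which 3 were called lower, 0 higher and 12 in neither direction by limma, beside 7.96% lower and 6.38% higher of all genes, with a median log2 fold change of -0.15; at an unadjusted p under 0.05, 5 were lower and 0 higher. SERPINB6, a serpin of the cell interior, stood at 18.6, 35.0, 14.7 and 116.2 RPKM in dome-shaped replicates 1 to 4, against 728, 329, 285 and 393 RPKM in primed replicates 1 to 4. Its groups did not overlap despite a wide spread in both, and its log2 fold change was -3.59 ± 0.58 (SE, limma adjusted p = 0.00617), and -4.19 without dome-shaped replicate 4. SERPINE2, protease nexin-1, an inhibitor of thrombin and of prostasin, fell to 41 ± 8.35 RPKM in dome-shaped ESCs, against 68.0 ± 2.79 RPKM in primed ESCs (SD, n = 4 each), a log2 fold change of -0.74 ± 0.14 (SE, limma adjusted p = 0.0118; 0.0567 without the filter on low values). WFDC2, a secreted protein with whey acidic protein domains, fell to 28.6 ± 15 RPKM in dome-shaped ESCs, against 76.6 ± 32.5 RPKM in primed ESCs (limma adjusted p = 0.0329). The WFDC2 groups overlapped, and its call was lost without dome-shaped replicate 2 or 3 or primed replicate 2, 3 or 4, at an adjusted p of 0.0698 to 0.0870. APP, the amyloid precursor, whose longer forms carry a Kunitz domain, did not pass, at 272 ± 34.1 RPKM in dome-shaped and 330.3 ± 36.2 RPKM in primed ESCs (limma adjusted p = 0.118), nor did SERPINB8 (adjusted p = 0.224). SERPINB9, at 7.47 ± 1.45 RPKM in dome-shaped and 32.1 ± 37.3 RPKM in primed ESCs, was not called (limma adjusted p = 0.115) but was called lower without primed replicate 1 (log2 fold change -0.77, adjusted p = 0.0395). TFPI, the tissue factor pathway inhibitor, named here after its values were seen, was high in 3 dome-shaped libraries, at 14.9, 15.9, 7.98 and 0.332 RPKM in dome-shaped replicates 1 to 4, against 0.939, 1.1, 6.68 and 1.36 RPKM in primed replicates 1 to 4. It was not called with all libraries (log2 fold change 1.36, limma adjusted p = 0.270), and was called higher without dome-shaped replicate 4 (2.19, adjusted p = 0.0181).

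In the list of substrates and receptors, which also holds the convertase FURIN and the growth factor receptor MET, the genes that were called were lower. Of 24 genes, 20 were found and 12 tested, of which 5 were called lower and 0 higher by limma, beside 7.96% and 6.38% of all genes; at an unadjusted p under 0.05 the counts were the same. The median log2 fold change of the 12 was -0.75. CDCP1, a transmembrane glycoprotein that matriptase can cut, stood at 2.56, 1.47, 2.24 and 4.81 RPKM in dome-shaped replicates 1 to 4, against 12.5, 15.5, 17.7 and 14.7 RPKM in primed replicates 1 to 4. As for ST14 and EPCAM, dome-shaped replicate 4 was the highest of its group and dome-shaped replicate 2 the lowest, and the log2 fold change was -2.16 ± 0.24 (SE, limma adjusted p = 0.00193). FURIN, a proprotein convertase, fell to 13.3 ± 2.15 RPKM in dome-shaped ESCs, against 27.3 ± 5.49 RPKM in primed ESCs (SD, n = 4 each), with a log2 fold change of -0.98 ± 0.17 (SE, limma adjusted p = 0.00785). KLK5, a kallikrein that matriptase activates in mouse skin, fell to 0.811 ± 0.509 RPKM in dome-shaped ESCs, against 3.81 ± 1.62 RPKM in primed ESCs (limma adjusted p = 0.0138; 0.0651 without the filter), and its log2 fold change was -1.39, or -2.20 with a pseudocount of 0.1.

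The receptors were nearer the threshold. F2RL1, the protease-activated receptor PAR2, stood at 40.5, 24.9, 31.1 and 60.1 RPKM in dome-shaped replicates 1 to 4, against 65.2, 80.4, 53.1 and 74.7 RPKM in primed replicates 1 to 4. Its groups overlapped through dome-shaped replicate 4 and primed replicate 3, and its log2 fold change was -0.85 ± 0.25 (SE, limma adjusted p = 0.0486). MET, the receptor of hepatocyte growth factor, fell to 0.636 ± 0.550 RPKM in dome-shaped ESCs, against 1.82 ± 0.405 RPKM in primed ESCs (SD, n = 4 each; limma adjusted p = 0.0466; 0.0543 with a pseudocount of 0.1). Both calls were lost on leaving out any 1 library except dome-shaped replicate 4, at an adjusted p of 0.0578 to 0.122 for F2RL1 and 0.0786 to 0.116 for MET. SDC1, a membrane proteoglycan, stood at 24.4 RPKM in dome-shaped and 29.3 RPKM in primed ESCs and did not pass (limma adjusted p = 0.161).

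Partners of EPCAM, claudins among them, were lower where they were called. Of 12 EPCAM partners, all found, 10 were tested, 6 were called lower and 0 higher by limma, beside 7.96% and 6.38% of all genes, with 7 lower and 0 higher at an unadjusted p under 0.05, and the median log2 fold change was -0.73. Without dome-shaped replicate 4, 7 of the partners were called lower. CLDN7, encoding claudin-7, stood at 4.18, 1.32, 1.38 and 4.66 RPKM in dome-shaped replicates 1 to 4, against 28.3, 65.6, 76.2 and 65.3 RPKM in primed replicates 1 to 4. Dome-shaped replicates 1 and 4 were the higher ones of their group, as for EPCAM, and the log2 fold change was -3.98 ± 0.39 (SE, limma adjusted p = 0.00110). CLDN4 fell to 0.495 ± 0.0827 RPKM in dome-shaped ESCs, against 10.1 ± 2.22 RPKM in primed ESCs (SD, n = 4 each), a log2 fold change of -2.87 ± 0.17 (SE, limma adjusted p = 0.000109). CLDN4 passed the filter through its primed libraries alone, so a gene with its levels had to differ; its fold change was -4.08 with a pseudocount of 0.1. CLDN3 fell to 1.87 ± 1.68 RPKM in dome-shaped ESCs, against 12.7 ± 3.85 RPKM in primed ESCs (limma adjusted p = 0.00860; 0.0527 without the filter), and its log2 fold change was -2.40, or -3.19 with a pseudocount of 0.1. CLDN6, a claudin of early embryonic cells, remained abundant, at 330.2 ± 51.9 RPKM in dome-shaped and 526 ± 68.2 RPKM in primed ESCs, with a log2 fold change of -0.67 ± 0.13 (SE, limma adjusted p = 0.0128; 0.0628 without the filter). The tetraspanins CD82 and CD9 were also called lower, with log2 fold changes of -1.06 ± 0.24 (SE, limma adjusted p = 0.0198) and -0.79 ± 0.20 (SE, limma adjusted p = 0.0300). Both calls were lost without dome-shaped replicate 2 or 3 or primed replicate 2, 3 or 4, and that of CD9 also without primed replicate 1, at an adjusted p of 0.0510 to 0.0805.

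Enzymes known to cleave EPCAM by other routes, as sheddases or secretases, were mostly not called. Of 9 genes, 7 were found and tested, of which 1 was called lower and 1 higher by limma, beside 7.96% and 6.38% of all genes, so nothing is read from the count. PSEN2, a presenilin of the gamma-secretase complex, fell to 13.2 ± 2.48 RPKM in dome-shaped ESCs, against 24.6 ± 2.18 RPKM in primed ESCs (SD, n = 4 each), a log2 fold change of -0.86 ± 0.14 (SE, limma adjusted p = 0.00627). BACE1, a beta-secretase, rose to 13.3 ± 2.78 RPKM in dome-shaped ESCs, against 7.29 ± 0.718 RPKM in primed ESCs, a log2 fold change of 0.77 ± 0.16 (SE, limma adjusted p = 0.0142; 0.0503 without the filter). ADAM17, a sheddase, stood at 20.1 ± 2.37 RPKM in dome-shaped and 18.1 ± 2.75 RPKM in primed ESCs (limma adjusted p = 0.477), and NCSTN, BACE2 and APH1B did not pass either (adjusted p = 0.344, 0.410 and 0.695).

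**Figure D4:**
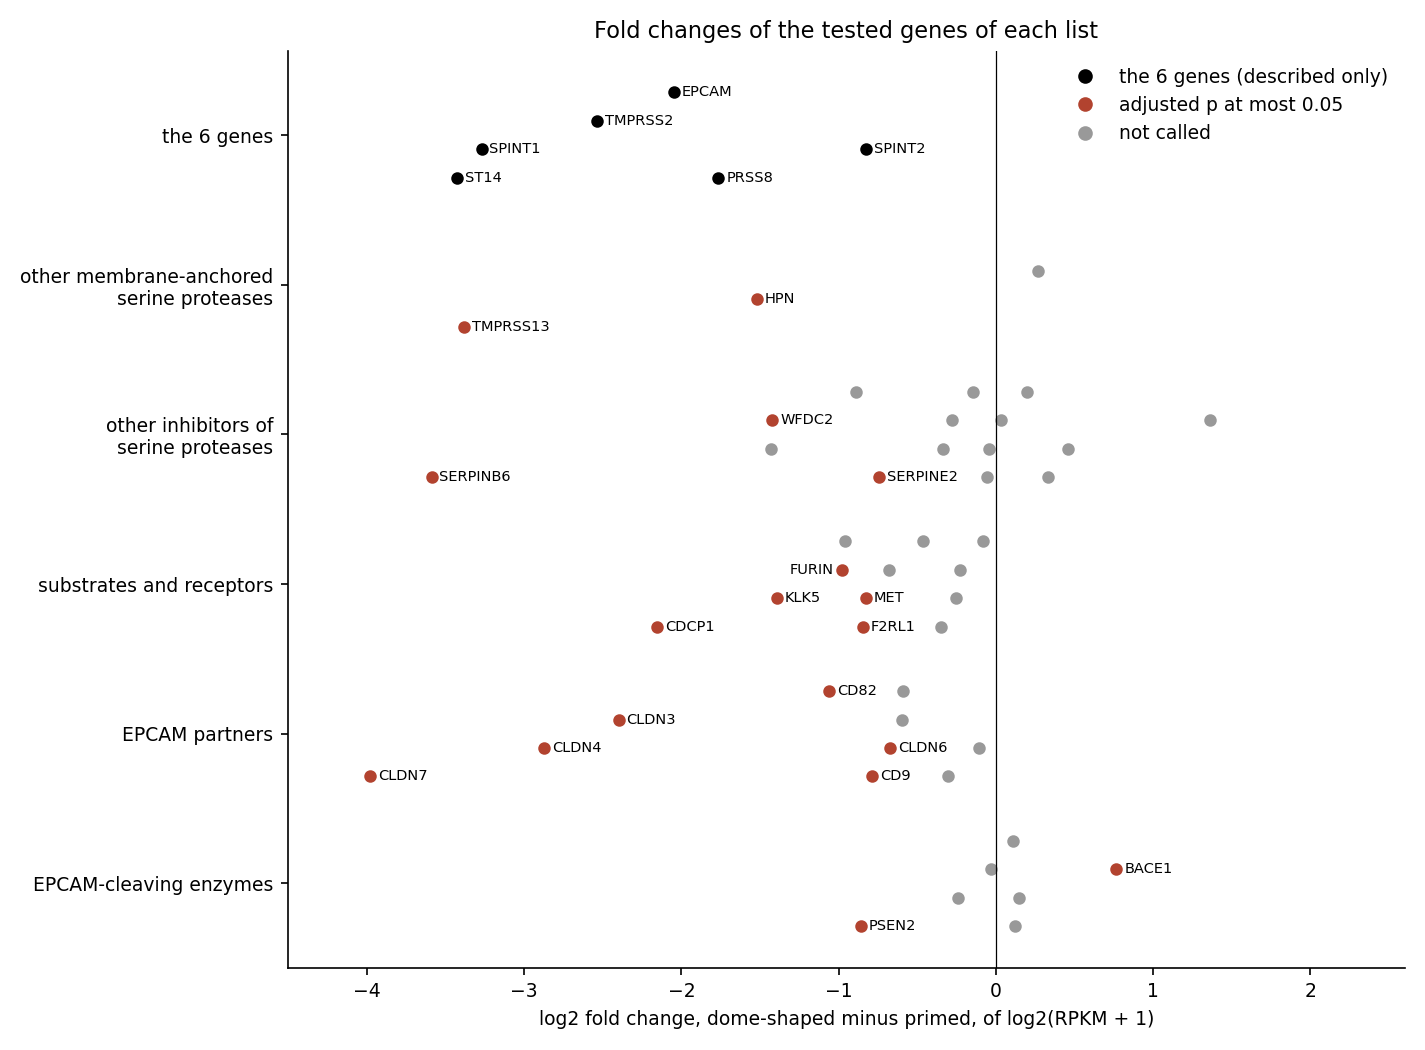
Log2 fold change, dome-shaped minus primed, of log2(RPKM + 1) for each tested gene of the 6 genes (black, described only) and of each list (red, limma adjusted p at most 0.05; grey, not called); vertical offsets within a list only separate the points. The EPCAM partners reach -3.98 (CLDN7), and the EPCAM-cleaving enzymes lie on both sides of 0.

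Epithelial markers were lower as the 6 genes were, and mesenchymal markers were higher where they were called. Of 8 epithelial markers, 8 were called lower, beside 7.96% of all genes. The markers were chosen with earlier results of these data known, so nothing is read from that count. CLDN4 and CLDN6 among them are also EPCAM partners above. The summed level of the 8 markers was 489 to 652 RPKM in dome-shaped and 1169 to 1331 RPKM in primed libraries. That sum rests largely on CLDN6 and KRT8, with means of 330 and 154 RPKM in dome-shaped and 526 and 329 RPKM in primed ESCs. Of 8 mesenchymal markers, 0 were called lower and 4 higher (VIM, ZEB1, ZEB2 and TWIST1), beside 6.38% of all genes, and their summed level was 632 to 1225 RPKM in dome-shaped and 134 to 513 RPKM in primed libraries. CDH2, SNAI1, SNAI2 and FN1 were not called. VIM alone stood at 456 to 834 RPKM in dome-shaped and 52.5 to 357 RPKM in primed libraries, so the dome-shaped mesenchymal sum rests largely on that gene. FN1 was above VIM in primed replicates 2 (76.1 against 62.2 RPKM) and 3 (204 against 76.8 RPKM), and below it in primed replicates 1 and 4. Neither sum overlapped between the groups, and the part of these markers in the levels of the 6 genes was not tested. Of 8 markers of pluripotent cells, no row was found for POU5F1 and PODXL, and 6 were found and tested. Of these, 2 (DPPA4 and TDGF1) were called lower, beside 7.96% of all genes. At an unadjusted limma p under 0.05, 4 were lower and 0 higher. TDGF1 stood at 108 ± 113 RPKM in dome-shaped and 396 ± 86.5 RPKM in primed ESCs, and DPPA4 at 216 ± 100 RPKM and 402 ± 48.5 RPKM. The summed level of the 6 was 1552 to 2157 RPKM in dome-shaped and 2219 to 2527 RPKM in primed libraries. The labelled ESC type was checked on SOX2, at 264 ± 43.8 RPKM in dome-shaped and 219 ± 41.4 RPKM in primed ESCs, on NANOG, at 83.5 ± 32.9 RPKM in dome-shaped and 134 ± 21.9 RPKM in primed ESCs, and on LIN28A, at 868 ± 99.8 RPKM in dome-shaped and 1087 ± 93.0 RPKM in primed ESCs (SD, n = 4 each). NANOG had 4 rows, and those not used here are not reported. SOX2, NANOG and LIN28A were present in every library, and none was called (limma adjusted p = 0.249, 0.0836 and 0.0608). Even so, every dome-shaped library was below every primed library for NANOG and for LIN28A, as for 10.7% of all genes.

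Markers of other lineages were not uniformly low. COL1A1, a fibroblast marker, was not called but stood at 29.7 ± 12.8 RPKM in dome-shaped and 73.4 ± 44.3 RPKM in primed ESCs (SD, n = 4 each). Of the 9 trophoblast markers found, 4 were tested and 2 called lower (HAND1 and KRT7), beside 7.96% of all genes. HAND1 passed the filter through its primed libraries alone, so a gene with its levels had to differ. KRT7 stood at 3.19 ± 0.861 RPKM in dome-shaped and 14.5 ± 2.90 RPKM in primed ESCs (SD, n = 4 each). The summed trophoblast level was 5.76 to 11.5 RPKM in dome-shaped and 20.6 to 97.1 RPKM in primed libraries. CGA and VGLL1 were listed at 0 in the dome-shaped libraries and were near 0 in the primed ones, at 0.0972 to 0.673 RPKM and 0 to 0.0502 RPKM. Of the 7 endoderm markers, 6 were tested and 2 called lower (FOXA2 and AFP), beside the same 7.96%. FOXA2 stood at 5.1 ± 3.2 RPKM in dome-shaped and 30.0 ± 7.1 RPKM in primed ESCs (SD, n = 4 each). The summed endoderm level was 10.5 to 76.3 RPKM in dome-shaped and 59.5 to 112 RPKM in primed libraries. Of the 9 fibroblast markers found, 5 were tested and 1 called lower (PDGFRB), again beside 7.96% of all genes. The summed fibroblast level was 43.2 to 66.1 RPKM in dome-shaped and 64.9 to 202 RPKM in primed libraries. The trophoblast sums did not overlap between the groups, but in primed replicate 1 KRT7 alone gave 17.9 of the 20.6 RPKM. That separation therefore rests on KRT7. In the same library GATA3 and TFAP2A, at 0.575 and 0.725 RPKM, were below dome-shaped replicate 1, at 2.83 and 4.94 RPKM. The part of the trophoblast markers in the levels of the 6 genes was not tested.

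The genes closest to EPCAM and to ST14 over the 8 libraries were found by the root-mean-square difference between log2(RPKM + 1) profiles, each centred on its own mean, among 6724 tested genes with a symbol and a mean of at least 5 RPKM. For EPCAM they were ESRP1, an epithelial splicing regulator (0.169), ERBB3, a receptor of the EGF receptor family (0.205), CDCP1 (0.229), the kinase gene MAPK13 (0.242) and EGFL6 (0.264); PRSS8 stood at place 8 (0.286). For ST14 they were RAB25, a small GTPase of epithelial cells (0.149), SPINT1 (0.282), TMPRSS13 (0.293), GRHL2, an epithelial transcription factor (0.301), and a row matched to UPK3BL2 (0.311). SPINT1 was thus at place 2 for ST14, but both genes were picked for being lower in these data, so nothing is read from that place. Between the 6 genes, the differences ran from 0.282 for ST14 and SPINT1 and 0.286 for PRSS8 and EPCAM to 1.29 for SPINT1 and SPINT2 and 1.33 for ST14 and SPINT2. All profiles share the same 8 libraries and the split between the groups, so the values are a description of likeness.

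**Figure D5:**
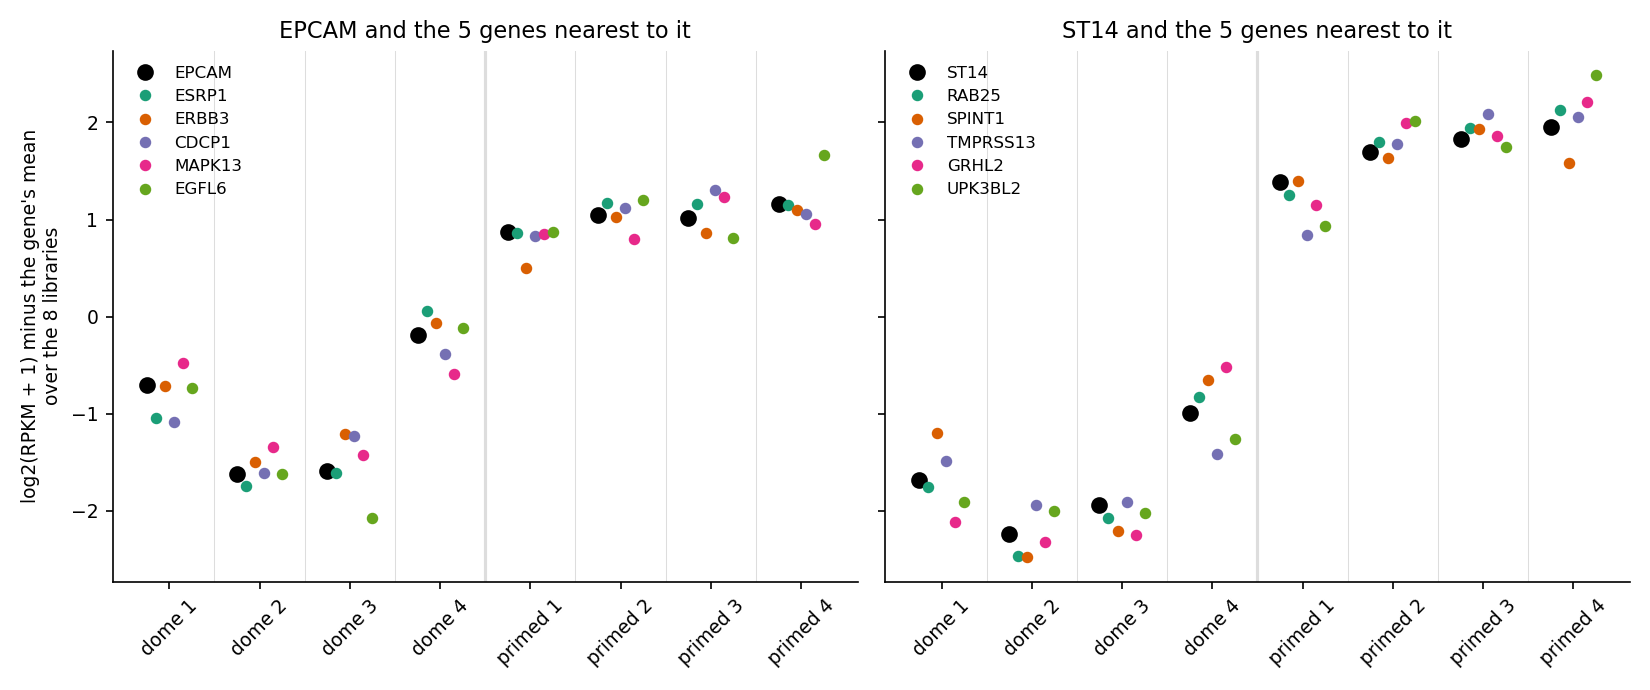
Log2(RPKM + 1) minus the gene's own mean over the 8 libraries, for EPCAM (left, black) and ST14 (right, black) and the 5 genes nearest to each, by library; points are shifted sideways within a library only to separate them. Dome-shaped replicate 4 lies above the other dome-shaped libraries for EPCAM and ST14, and below every primed library.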

How the data were processed

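The authors deposited 1 table of RPKM values for 33121 genes (17 further rows were blank) with best protein matches and their percent identity, per the file headers. HTSeq 0.6.1, TopHat2 2.0.9 and Bowtie2 2.0.6 are named in the submitters' processing notes. For the build and the annotation nothing is given in the sources used here. Reads were counted without a recorded strand-specific step, so reads of overlapping antisense genes cannot be told apart. The columns of dome-shaped replicates 1 to 3 lacked the closing characters of their titles and were matched by the rest.

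None of the 6 genes was named by the table itself; all were taken by protein match, at 98.1% to 100% identity, so a close copy may share reads. Other symbols came from the table (4302), from the RefSeq gene table of assembly T2T-MFA8v1.1 by accession (7323), from the match text (966) and from protein names paired by hand (26).

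Values were transformed to log2(RPKM + 1). The 15597 genes that reached 1 RPKM in 4 or more of the 8 libraries were fitted with limma 3.58.1 in R 4.3.3 (lmFit, then eBayes allowing a trend with the mean; group as the only term; two-sided), with Benjamini-Hochberg adjustment and a threshold of 0.05. The fit was first tested on simulated data. Of values under 50 implied reads, 73.1% to 75.0% were whole within 0.01 of a read, too few for a count test. All replicate pairs differed beyond sampling noise, with a chi-square per degree of freedom of at least 7.67, and each library counted as 1 replicate.

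The members and gene lists were chosen with earlier results of these data known; some list genes are not reported here and are left out of the counts. Named were the 6 genes, up to 6 tested genes of each list with the smallest p, the 5 nearest profiles to EPCAM and ST14, and CDH1, VIM, SOX2, NANOG and LIN28A. Other marker genes were named where a sentence counts or describes them, after their values were seen. Alternatives were pseudocounts of 0.1 and 0.5, no filter, a minimum mean of 5 RPKM, median-of-ratios scaling, quantile normalization and a replicate block. Further alternatives left out each library in turn or summed the rows of each of the 6 genes. Of the 6, only SPINT1 had a second row, at 0 in all 8 libraries, so the summing could change nothing. Rows of other genes were not summed.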

Additional observations from a re-analysis of the deposited data

Results flagged for a closer look

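In 86 groups of 4 libraries, formed by the 6 genes and the named genes of the lists, the lowest or highest library was compared with the others by Dixon's ratio, which chance exceeds in about 1 in 20 groups. No library of the 6 genes exceeded it. SERPINB9 was at 87.99 RPKM in primed replicate 1, against 10.1 to 16.0 RPKM in the other primed libraries. NCSTN was at 76.22 RPKM in dome-shaped replicate 4, against 92.1 to 95.1 RPKM in the other dome-shaped libraries. APH1B was at 17.47 RPKM in dome-shaped replicate 1, against 10.0 to 11.2 RPKM in the other dome-shaped libraries. CDH1 was at 9.962 RPKM in dome-shaped replicate 4, against 0.205 to 1.56 RPKM in the other dome-shaped libraries. VIM was at 356.6 RPKM in primed replicate 1, against 52.5 to 76.8 RPKM in the other primed libraries.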

How the results depend on the processing

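As a description of genes chosen for being lower, with nothing read from it, the log2 fold change over the alternatives ranged from -4.08 to -3.25 for ST14, -1.91 to -1.57 for PRSS8, -2.98 to -2.37 for TMPRSS2, -3.60 to -2.99 for SPINT1, -0.90 to -0.74 for SPINT2 and -2.33 to -1.85 for EPCAM. Without a filter, 639 genes were called lower and 437 higher, 1 of the other proteases, 1 of the other inhibitors, 2 of the substrates and receptors and 2 of the EPCAM partners were called lower, and 0 EPCAM-cleaving enzymes higher (1 with the filter); more genes were then tested. Of the alternatives in which each was tested, the calls of SERPINE2, KLK5, CLDN3, CLDN6 and BACE1 were lost under that setting alone; KLK5 was not tested with a mean of at least 5 RPKM. The other proteases called lower were also 1 with a pseudocount of 0.1 or 0.5. The substrates and receptors called lower were 3 with a pseudocount of 0.1 and under quantile normalization, and 2 with a mean of at least 5 RPKM.

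On leaving out 1 library, 655 to 1441 genes were called lower and 381 to 1289 higher, against 1242 and 995 with all libraries; the lower count fell by over 1.5 times without dome-shaped replicate 2 (689) or 3 (686) or primed replicate 2 (655) or 4 (757), and the higher count without the same libraries (399, 442, 381 and 487) or primed replicate 3 (516). The ranges were 1 to 2 for the other proteases called lower, 0 to 1 for the other inhibitors called higher (1 without dome-shaped replicate 4) and 3 to 5 for the substrates and receptors called lower. For the EPCAM partners called lower the range was 4 to 7, with 7 without dome-shaped replicate 4. APH1B, not called, had log2 fold changes of -0.062 to 0.187, below 0 without dome-shaped replicate 1. The cause of these moves was not tested.

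The labels do not say what the numbers after CES in the titles mean. Dome-shaped replicates 1 and 2 shared a number, as did primed replicates 3 and 4. Across the groups, same-numbered libraries had correlations of -0.0975 to 0.125 in their deviations from the group means, against -0.223 to 0.201 for other pairs. These few correlations cannot exclude a shared origin of same-numbered libraries. With these numbers as a replicate block, 593 genes were called lower and 303 higher, and the calls were 1 of the other proteases and 3 of the substrates and receptors lower, 4 of the EPCAM partners against 6 (CD82 and CD9 lost) and 2 of the other inhibitors against 3 (WFDC2 lost, adjusted p 0.102 by limma); fold changes of the 6 genes in the blocked fit were -3.26 for ST14, -1.67 for PRSS8, -2.54 for TMPRSS2, -3.10 for SPINT1, -0.78 for SPINT2 and -1.92 for EPCAM. RPKM values carry no counts, so no counting interval is given.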
